A study of Mus musculus with 2 samples.

Results

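The proteasome is the barrel-shaped protease complex that degrades proteins tagged with ubiquitin. The genes described here are those whose symbol begins with Psm, a letter from a to g and a number, together with Pomp, the proteasome maturation protein. Of 19938 genes measured with a cluster of probes that carries 1 gene symbol, 51 matched. Of these, 49 encode a subunit, activator, inhibitor or assembly chaperone of the proteasome. The other 2 were Psmc3ip, a partner of meiotic recombinases, and Psme3ip1, a partner of the activator PA28 gamma. They matched the naming rule but were in no list of these roles, and are called matched by name only. A gene with several clusters was represented by the cluster of highest mean signal.

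RNA came from spleen CD4 T cells of mice on a C57/BL6 and 129 mix background. The cells were sorted for high TCRbeta and CD4, and enriched for naive cells by low surface CD44. The knockout, Taf7 -/-, was TAF7f/- 8EIII-cre+, and the heterozygote, Taf7 +/-, was TAF7 f/- 8EIII-cre-, so both carried a floxed and a null Taf7 allele and differed in the Cre transgene. Each genotype had 1 array. The labels do not state the age of the mice, the cells in which the Cre is active or whether mice were pooled. No difference below has an estimate of error, no test between genotypes was possible, and the number of arrays limits every statement. In sorted populations, fewer cells of a type and less RNA per cell cannot be told apart.

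The 20S core particle is a stack of rings. Its outer rings are built of alpha subunits, and its inner rings of beta subunits, of which beta1, beta2 and beta5 carry the active sites. Interferon-gamma replaces these with the immunoproteasome subunits encoded by Psmb9, Psmb10 and Psmb8, which alters the peptides made for class I antigen presentation, and lymphocytes hold much of this form at rest. The 19S cap binds ubiquitin chains, removes them with an enzyme of its lid and unfolds proteins with the ATPases of its base, whereas PA28 is an alternative cap that opens the core without ubiquitin. Dedicated chaperones assemble the rings and are not part of the finished particle.

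The values are log2 signals, and a difference is always knockout minus heterozygote. Genes whose mean over both arrays reached 7.71, the median of all rows, were taken as above a filter on low values, and 10457 genes did so. The filter uses the mean of both arrays, and it turns the balance of directions: 1935 genes were lower and 870 higher by 1.2-fold above it, and 2217 lower and 3019 higher with no filter. The deleted gene itself, Taf7, was at 8.34 in heterozygous cells and 7.79 in knockout cells. The arrays differed by an offset that varied with signal: the median difference was -0.05 over all genes above the filter and -0.07 over the 5546 high-signal genes, those whose mean reached 9.63, the upper quartile of all rows. Because of this offset, directions were also read under 3 other scalings, which were centring (subtraction of the median difference), subtraction of a loess curve fitted on signal, and quantile normalization.

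Most proteasome genes were well expressed and differed little between the genotypes. Of the 51, 49 were above the filter and 43 were high-signal genes. In the middle of the distribution, from the 25th to the 75th percentile, the differences of the 51 ran from -0.16 to 0.00, against -0.20 to 0.10 for all genes above the filter and -0.19 to 0.04 for high-signal genes. The full range ran from -0.60 at Psmb9 to 0.23 at Psma8. Summed on the linear scale, the signal of the 51 in the knockout was 0.954 of that in the heterozygote, and that of all genes above the filter 0.955.

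The direction of the proteasome genes as a group depended on the scaling. As deposited, 37 of the 49 above the filter were lower in the knockout, or 75.5%, against 59.1% of all genes above the filter and 65.2% of high-signal genes. Among high-signal genes alone, 33 of 43 proteasome genes were lower, or 76.7%. The median difference of the 49 was -0.07 and that of the 43 was -0.05, beside -0.05 for all genes above the filter and -0.07 for all high-signal genes. After centring 26 of the 49 were lower, with the loess trend removed 25, and after quantile normalization 24, with a median that changed sign to 0.014. Of the 49 genes, 24 were lower and 12 higher under all 4 scalings, while the sign of 13 depended on the scaling.

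Single genes past a fixed fold were few. At 1.2-fold, 6 of the 49 were lower and none higher, where 18.5% of all genes above the filter were lower and 8.32% higher by that much. Among high-signal genes 6 of 43 were lower by 1.2-fold, or 14.0%, against a background of 15.5%. The share of proteasome genes lower by 1.2-fold was thus near or below that of all genes. At 1.5-fold, Psmb9 was lower, 1 of the 49, and no other proteasome gene passed in either direction. Of all genes above the filter 3.17% were lower and 0.449% higher by that much, and of high-signal genes 1.89% were lower. The share of the 49 was thus not above that of all genes above the filter, and it was 0 under the 3 other scalings. The 6 genes lower by 1.2-fold were Psmb9, the chaperone genes Psmg4, Psmd10 and Psmg2, the ATPase gene Psmc6 and the core gene Psmb7. Psmb9, Psmg4, Psmd10 and Psmg2 stayed past 1.2-fold under all 4 scalings. Psmb7 was within 1.2-fold under each of the 3 others, and Psmc6 after removal of the trend and after quantile normalization. This split is narrow. After quantile normalization Psmd10 was at -0.269 and Psmg2 at -0.272, while Psmc6 was at -0.262 with the trend removed. Just short of the 1.2-fold line lay Psmc2 at -0.25 and Psmg1 at -0.24, so the count rests in part on where the line stands. It also rests on the cluster chosen for Psmc1, which was at -0.21 with the cluster used and -0.28 with its clusters averaged, past 1.2-fold.

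**Figure D1:**
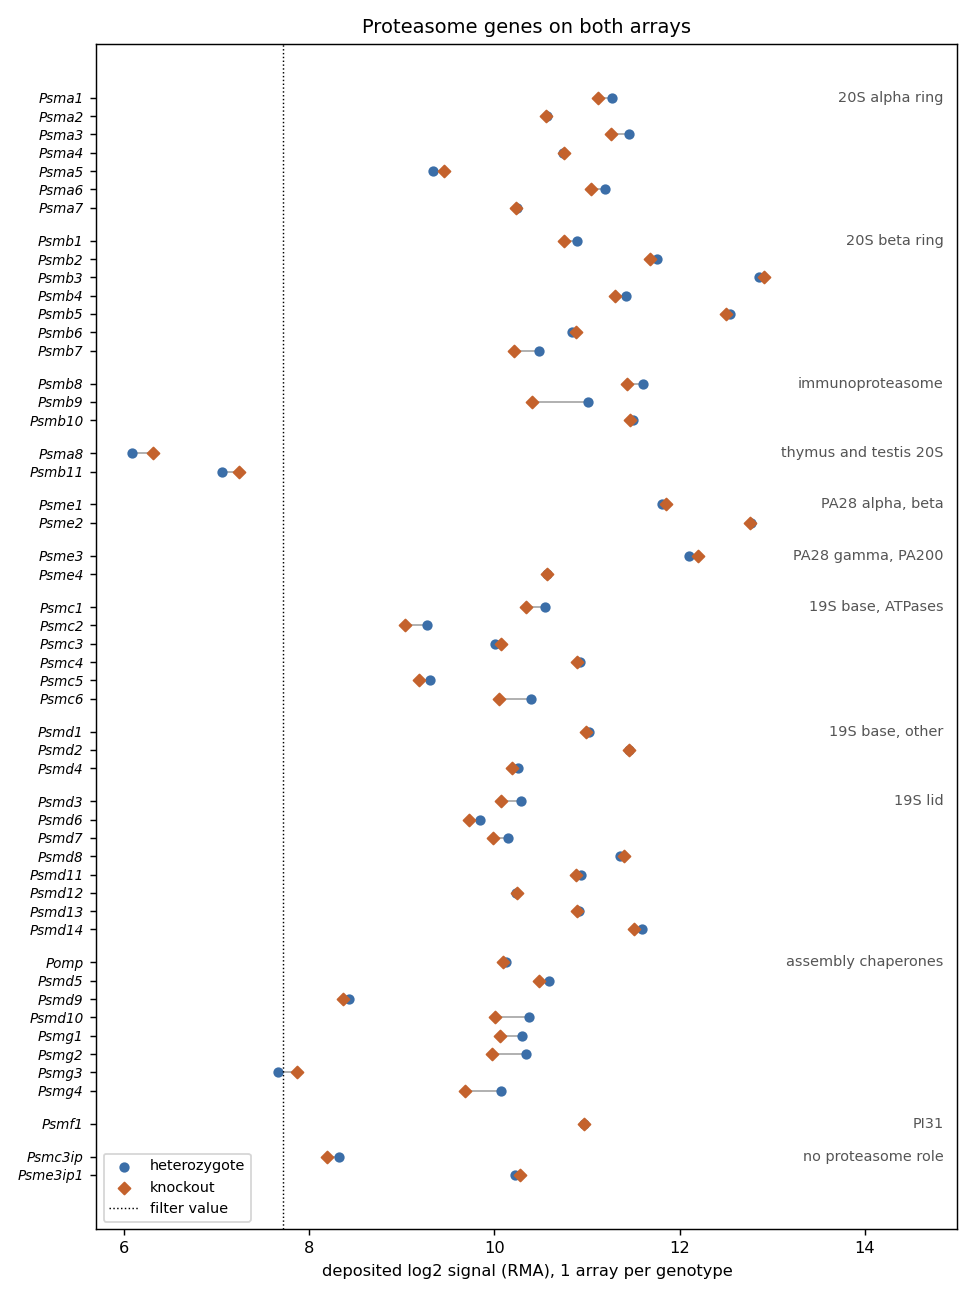
Deposited log2 signal (horizontal axis) of each of the 51 genes on the heterozygous array (circles) and the knockout array (diamonds), grouped by role, with 1 array per genotype and the filter value of 7.71 as a dotted line. The widest gap is that of Psmb9, from 11.01 to 10.41, and only Psma8 and Psmb11 lie below the filter on both arrays.

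The constitutive 20S core was close to level. As deposited, 10 of its 14 genes, or 71.4%, lay below 0 and 4 above it, where 59.1% of all genes above the filter were lower. The core median of -0.06 became -0.0084 after centring and 0.0025 after quantile normalization. In the outer rings, Psma3 had the lowest difference, with 11.45 in heterozygous cells and 11.26 in knockout cells. Psma1, from 11.27 to 11.11, and Psma6, from 11.19 to 11.04, both differed by -0.15. The outer rings hold the gate through which substrates enter. Psma5 was the highest at 0.12, from 9.33 to 9.45, while Psma2, Psma4 and Psma7 lay between -0.02 and 0.00.

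In the inner rings, the structural subunits Psmb1, Psmb2, Psmb3 and Psmb4 had differences from -0.14 to 0.05. Psmb3 had its knockout value, 12.91, next to its heterozygote value, 12.86. The constitutive active sites differed more from each other. Psmb7, which encodes beta2 with trypsin-like activity, was at 10.48 in heterozygous cells and 10.21 in knockout cells, a difference of -0.27. Psmb6, the caspase-like beta1, was at 0.04, and Psmb5, the chymotrypsin-like beta5 that is the main target of bortezomib, at -0.04.

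The immunoproteasome subunits did not share a common difference, and Psmb9 stood apart from its partners. Psmb9, which encodes beta1i, read 11.01 on the log2 scale in heterozygous cells and 10.41 in knockout cells. It was 1.52-fold lower, a difference of -0.60, and 302 genes above the filter, or 2.89%, were as low. Its difference was -0.55 after centring and -0.53 both with the trend removed and after quantile normalization, so that it no longer reached 1.5-fold under any of these. Psmb8, the beta5i gene, went from 11.60 to 11.43, a difference of -0.17. Psmb10, the beta2i gene, was nearly level, at 11.50 and 11.46, and its difference of -0.03 turned positive under the 3 other scalings.

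Setting each inducible subunit beside the constitutive subunit it replaces gave different signs. At the beta1 position the difference of Psmb9 minus that of Psmb6 was -0.64 on the log2 scale. At the beta2 position the order was opposite, and Psmb10 minus Psmb7 came to 0.24. At the beta5 position Psmb8 minus Psmb5 came to -0.13. Each of these signs was the same with the trend removed and after quantile normalization. Centring shifts both genes of a pair alike and cannot change such a contrast. An unequal difference within a pair of arrays shows no more than that, and none of these contrasts has a replicate.

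Psmb9 lies in the major histocompatibility complex and is transcribed away from Tap1, a subunit of the peptide transporter, from a shared stretch of DNA. In the RefSeq annotation of build GRCm38.p6 the starts of Psmb9 and Tap1 are 226 bases apart on chromosome 17. Tap1 was at 12.36 in heterozygous cells and 12.45 in knockout cells, a difference of 0.09, and the difference of Psmb9 minus that of Tap1 was -0.69. The upstream sequences of the immunoproteasome genes and of Psmb6 are printed because Psmb9 was past 1.5-fold as deposited while Tap1, across the same stretch, did not reach 1.2-fold. Each is the 250 bases before the start of the gene, 5′ to 3′ on the strand of the gene. The Psmb9 window is chr17:34187331-34187580 on the minus strand, and it reaches past the start of Tap1. The Psmb6 window is chr11:70525107-70525356 on the plus strand, that of Psmb8 is chr17:34197945-34198194 on the plus strand, and that of Psmb10 is chr8:105938393-105938642 on the minus strand. Capitals mark matches, on either strand, to any of 5 motifs: the interferon regulatory factor element GAAANNGAA, the STAT element TTCNNNGAA, the GC box GGGCGG, the CCAAT box CCAAT and the antioxidant element TGACNNNGC.
Psmb9: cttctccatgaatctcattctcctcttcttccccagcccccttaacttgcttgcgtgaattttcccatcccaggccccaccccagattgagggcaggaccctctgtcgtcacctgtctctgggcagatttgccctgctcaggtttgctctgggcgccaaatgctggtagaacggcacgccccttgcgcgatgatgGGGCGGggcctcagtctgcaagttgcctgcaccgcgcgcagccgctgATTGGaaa
Psmb6: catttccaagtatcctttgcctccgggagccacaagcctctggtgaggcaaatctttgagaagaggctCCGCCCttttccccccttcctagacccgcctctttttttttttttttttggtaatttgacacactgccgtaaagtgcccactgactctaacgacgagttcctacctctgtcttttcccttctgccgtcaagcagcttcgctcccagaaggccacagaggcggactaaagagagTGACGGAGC
Psmb8: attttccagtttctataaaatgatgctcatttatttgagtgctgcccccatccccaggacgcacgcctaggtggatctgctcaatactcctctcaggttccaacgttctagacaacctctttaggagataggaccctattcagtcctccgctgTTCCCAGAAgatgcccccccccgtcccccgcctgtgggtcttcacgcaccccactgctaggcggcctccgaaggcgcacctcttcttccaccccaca
Psmb10: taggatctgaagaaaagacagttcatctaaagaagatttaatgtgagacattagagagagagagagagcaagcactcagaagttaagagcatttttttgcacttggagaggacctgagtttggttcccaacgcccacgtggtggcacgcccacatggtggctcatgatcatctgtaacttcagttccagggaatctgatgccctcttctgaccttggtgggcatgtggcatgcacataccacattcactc

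The window of Psmb9 held a GC box that begins 55 bases before the start and a CCAAT box on the opposite strand that begins 8 bases before it. That of Psmb6 held a GC box on the opposite strand at 182 bases and an antioxidant element, the kind of site bound by NRF1 and NRF2, at 9 bases. Psmb8 held a STAT element at 97 bases, and the Psmb10 window held no match. No marked match overlaps another. A match describes these letters only, and the absence of the interferon regulatory factor element from all 4 windows says nothing of that factor.

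Across the 48 promoter windows available for 44 of the 51 genes, the GC box stood apart in its share. It was found in 25 windows, or 52.1%, against 32.7% of 32851 windows of the same length. The CCAAT box was in 33.3% against 33.8%, the antioxidant element in 10.4% against 10.2%, the interferon element in 6.25% against 7.13% and the STAT element in 4.17% against 7.02%. The windows were also richer in G and C, with a median of 57.6% against 52.4%, which itself raises the frequency of a motif made of those bases. The windows of 1 gene can overlap, and these shares were not tested.

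The genes next to Psmb9 did not move together either. Psmb9, Tap1, Psmb8 and Tap2 follow each other on the chromosome, with differences of -0.60, 0.09, -0.17 and -0.01. On either side of this block lie class II genes that were chosen for mention after their values were seen. H2-DMa, a chain of the peptide exchange factor of class II, was at 10.38 and 9.65, a difference of -0.73. H2-Ob, a chain of the inhibitor of that factor, was at 11.31 and 10.48, a difference of -0.83. The genes of H2-DM beta chains between H2-DMa and Psmb9 were not analysed here.

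PA28 alpha and beta, the interferon-inducible cap encoded by Psme1 and Psme2, was level. Psme1 was at 11.81 in heterozygous cells and 11.85 in knockout cells. Psme2 was at 12.77 and 12.76. Their differences of 0.04 and -0.00 were of opposite sign as deposited and both above 0 under the 3 other scalings. The other activators also stood near 0: Psme3, the nuclear PA28 gamma, was at 0.09 and Psme4, the large activator PA200, at -0.00. Psmf1, the inhibitor PI31, was at -0.01.

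**Figure D2:**
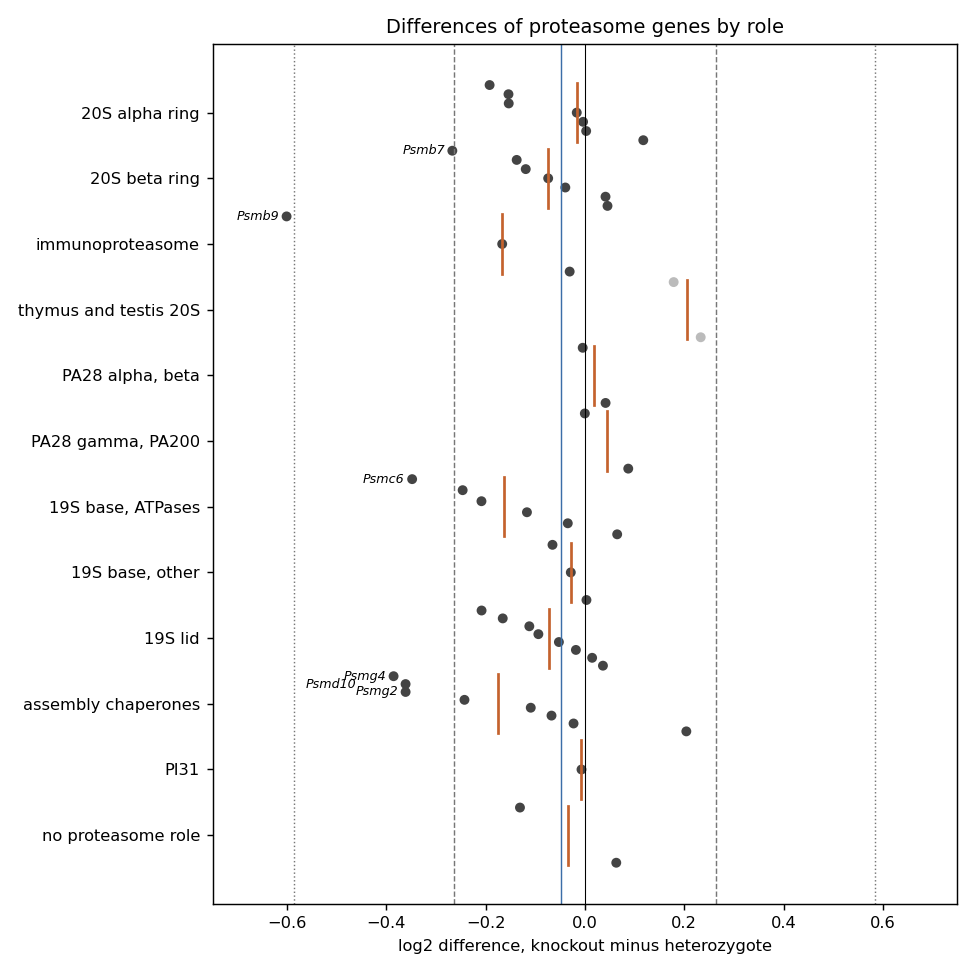
Log2 difference, knockout minus heterozygote (horizontal axis), of each gene by role, with grey points for genes below the filter, short bars for group medians, dashed lines at 1.2-fold, dotted lines at 1.5-fold and a thin blue line at the median of all genes, -0.05. Psmb9 lies past the 1.5-fold line as deposited but not after centring, and the 6 named points are the genes lower by 1.2-fold.

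The base of the 19S cap had a median of -0.07 over 9 genes. As deposited 7 of these were lower, or 77.8%, and 2 higher, where 59.1% of all genes above the filter were lower. The median of the base turned to 0.020 with the trend removed and 0.017 after quantile normalization. Its ATPases, which form the ring that unfolds substrates, spread widest. Psmc6 was at 10.40 in heterozygous cells and 10.05 in knockout cells, a difference of -0.35 or 1.27-fold lower. Psmc2 went from 9.28 to 9.03 and Psmc1 from 10.55 to 10.34, and Psmc5 was at -0.12. Psmc4 was at -0.03, and Psmc3 was higher, at 10.01 and 10.07. The scaffold genes Psmd1 and Psmd2 were at -0.03 and 0.00, and Psmd4, a ubiquitin receptor, at -0.07.

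None of the 8 genes of the lid reached 1.2-fold. Their median was -0.07 as deposited, -0.02 after centring and within 0.01 of 0 under the other 2 scalings. As deposited 6 of the 8, or 75%, were lower, against 59.1% of all genes above the filter. Psmd3 had the lowest difference, from 10.28 to 10.07. Psmd7, a partner of the deubiquitinase, was at -0.17 and Psmd6 at -0.11. Psmd14, the deubiquitinase that removes ubiquitin chains from substrates, was at 11.60 and 11.50. Psmd11, Psmd12, Psmd13 and Psmd8 lay between -0.05 and 0.04.

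Assembly chaperones held 3 of the 6 genes lower by 1.2-fold. That is 37.5% of the 8 chaperone genes, against 18.5% of all genes above the filter. As deposited 7 of the 8, or 87.5%, were lower, against 59.1% of all genes. Under each of the 3 other scalings 6 were lower, or 75%, against 48.2% to 50.8% of all genes. The chaperone median was -0.18 as deposited and from -0.13 to -0.10 under the others. As deposited, the medians were -0.17 for the immunoproteasome and -0.16 for the base ATPases. Psmg4, which pairs with Psmg3 in building the alpha ring, was at 10.07 in heterozygous cells and 9.68 in knockout cells, a difference of -0.39 or 1.31-fold lower, and 9.46% of genes above the filter were as low. Psmg2, which pairs with Psmg1, was at 10.34 and 9.98, a difference of -0.36. Psmg1 itself went from 10.30 to 10.06. Psmg1 and Psmg2 were both lower under all 4 scalings. Psmg3 and Psmg4 had opposite signs, but the signal of Psmg3 lay near the filter value, so this pair cannot be compared on equal terms.

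Psmg3 was the chaperone gene with a difference above 0, at 7.66 in heterozygous cells and 7.86 in knockout cells. Its heterozygote value was below the filter value and its knockout value above it. It thus passed the filter only through its knockout value. Its difference of 0.20 was 0.06 with the trend removed and 0.13 after quantile normalization. Psmd10, or gankyrin, a chaperone of the 19S base, was at 10.37 and 10.01, a difference of -0.36. The other base chaperones Psmd5 and Psmd9 were at -0.11 and -0.07. Pomp, which helps unfinished cores to join and is needed for immunoproteasome assembly, was at 10.12 and 10.10.

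The proteasome genes lay within the spread of all genes, as the plot of all genes shows, with Psmb9 toward its lower edge. For Psmb9, Psmg4 and Psmc6, 2.89%, 9.46% and 11.7% of genes above the filter were as low. The tissue-restricted core genes Psmb11, of the thymus cortex, and Psma8, of the testis, were below the filter on both arrays, at 7.06 and 7.24 and at 6.08 and 6.32. Over all 19938 genes, weak ones included, the median difference was 0.06, and with the trend removed the differences of Psmb11 and Psma8 were 0.01 and 0.08. Of the genes matched by name only, Psmc3ip was at -0.13 and Psme3ip1 at 0.06.

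**Figure D3:**
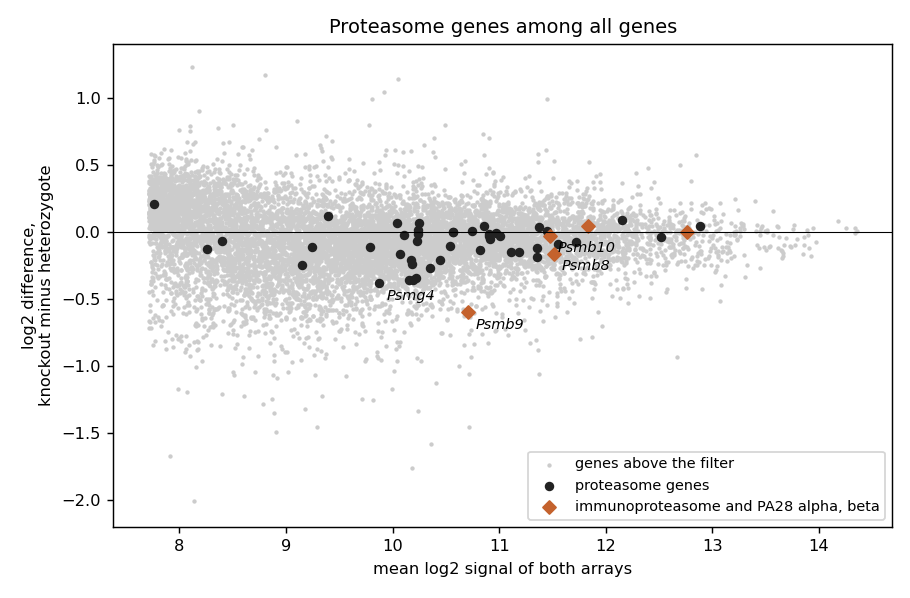
Log2 difference, knockout minus heterozygote (vertical axis), against the mean log2 signal of both arrays (horizontal axis), for 10457 genes above the filter in grey, with the 49 proteasome genes above it in black and the immunoproteasome and PA28 alpha and beta genes as diamonds. Psmb9 lies at -0.60 at the lower edge of the bulk, and the other diamonds lie between -0.17 and 0.04.

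Psma3, Psma5, Psmb3, Psmc1 and Psmd2 were each measured by several clusters, whose differences were not identical. The widest gap was 0.14, between -0.21 and -0.35 for Psmc1, on either side of 1.2-fold. The 3 clusters of Psma3 were at -0.25, -0.25 and -0.19. A cluster shared by Psme2 and Psme2b, a near copy of Psme2, was at 0.01 and was not used. Proteasome genes have processed copies in the genome, and it was not tested whether their signals include those of such copies.

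Genes that work with the proteasome but lie outside the naming rule were described in the same way. Of 13 proteasome-associated genes measured out of 16 listed, 10 were lower and 3 higher as deposited, with a median of -0.12. The share lower was 76.9%, against 59.1% of all genes above the filter. By 1.2-fold, 2 of the 13 were lower and none higher, beside the background of 18.5% lower and 8.32% higher. Zfand5, which stimulates degradation by the proteasome, was the lowest at -0.40, and Usp14, a deubiquitinase of the 19S cap, was at -0.27. Sem1, the smallest lid subunit, was at -0.22. Akirin2, which carries proteasomes into the nucleus, was the highest at 0.16. Nfe2l1, which encodes NRF1, the factor that raises proteasome genes when the protease is inhibited, was at -0.00, and all 3 genes measured of its 4-gene list were within 1.2-fold.

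Genes linked to the immunoproteasome through interferon were split. The 9 class I loading genes measured of 11 listed had a median of -0.06 as deposited. Of these, 7 lay below 0, or 77.8%, against 59.1% of all genes above the filter. Pdia3, a chaperone of the loading complex, was the lowest at -0.39, and Tap1 the highest. Among the 6 interferon regulators measured of 7 listed, Irf9 was the lowest at -0.11 and Irf8 the highest at 0.63. Irf1 was at 0.09, Stat2 at -0.01 and Nlrc5, the class I transactivator, at 0.00. Interferon-stimulated genes were lower in 10 of 12 measured, out of 16 listed. Of the 11 that passed the filter 81.8% were lower, against 59.1% of all genes above it. By 1.5-fold, 5 of the 11 were lower, where 3.17% of all genes above the filter were. The median was -0.30 over the 11 that passed and -0.45 over all 12. Ifit3 and Ifit2 were the lowest above the filter, at -0.88 and -0.82, while Mx1, at -0.80, was below the filter on both arrays. Oas2 and Irf7 were the highest, at 0.29 and 0.23. Among interferon-induced genes of the proteasome and transporter, Psmb9 at -0.60, Psmb8 at -0.17, Psmb10 at -0.03 and Psme2 at -0.00 lay below 0 as deposited. So did 59.1% of all genes above the filter. Psme1 at 0.04 and Tap1 at 0.09 lay above 0. Of these genes Psmb9 alone reached 1.2-fold. The part of interferon in the value of Psmb9 was not tested.

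**Figure D4:**
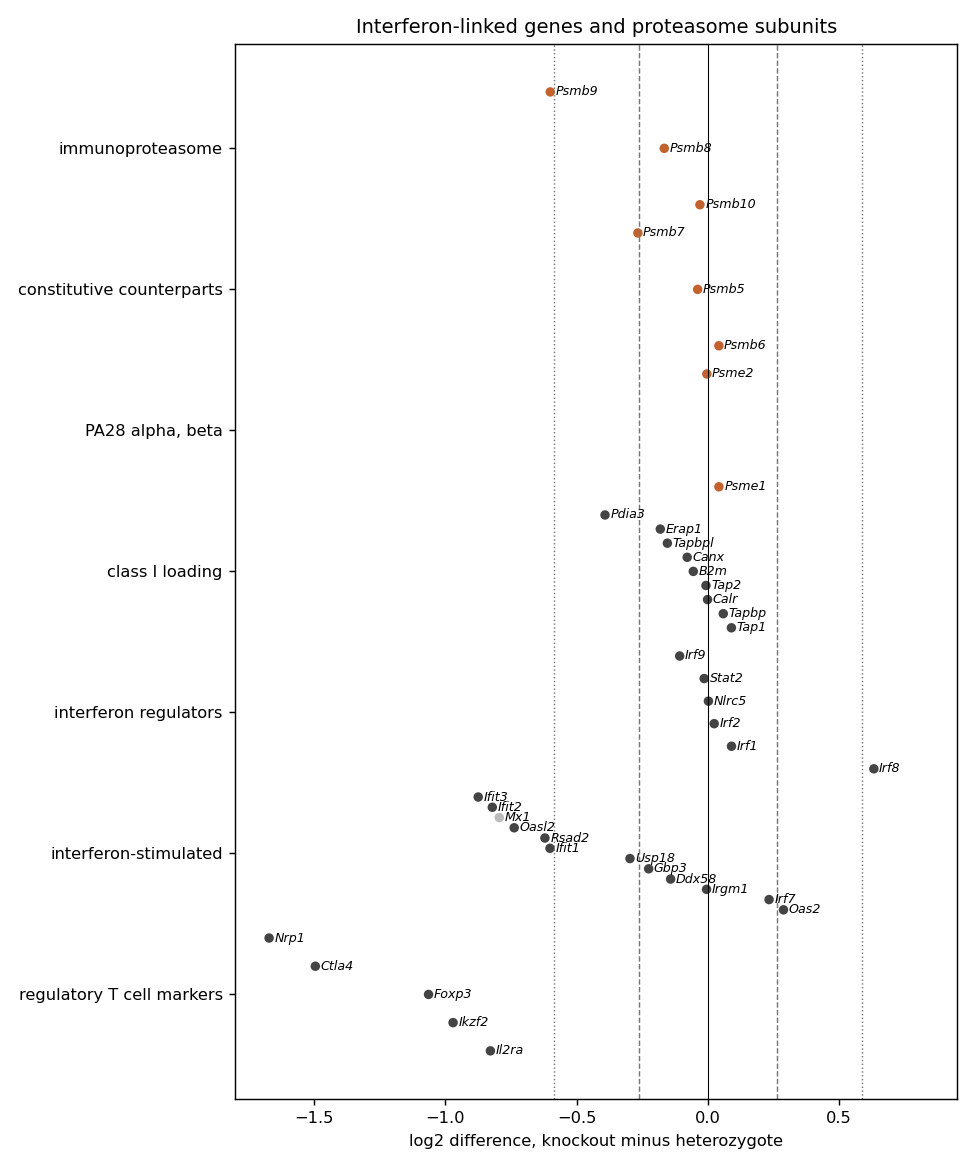
Log2 difference, knockout minus heterozygote (horizontal axis), of the immunoproteasome genes, their constitutive counterparts, PA28 alpha and beta, class I loading genes, interferon regulators, interferon-stimulated genes and regulatory T cell markers, each point 1 gene with 1 array per genotype, in grey where below the filter, and with dashed lines at 1.2-fold and dotted lines at 1.5-fold. Psmb9 at -0.60 lies among the lower interferon-stimulated genes, while Tap1 at 0.09 lies on the other side of 0.

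The cells carried the markers of CD4 T cells, and the markers of regulatory T cells were lower in the knockout. All 7 CD4 T cell markers measured of 10 listed were above the filter on both arrays, Cd4 at 13.0 in the heterozygote. Their median difference was -0.22, and their summed linear signal in the knockout was 0.920 of that in the heterozygote. Cd3d at -0.50 and Cd28 at -0.42 were past 1.2-fold lower, or 28.6% of those measured, against 18.5% of all genes above the filter. All 5 regulatory T cell markers were past 1.5-fold downwards, where 3.17% of all genes above the filter were. They ran from -1.67 at Nrp1 to -0.83 at Il2ra. Their summed linear signal in the knockout was 0.496 of that in the heterozygote. B cell markers were above the filter in 1 of 6 on each array, myeloid markers in 2 of 10 on the heterozygote array and 1 on the other, natural killer markers in 1 of 6 on each array, erythroid markers in 1 of 3 and 2 of 3, and CD8 T cell markers in 1 of 2 on each array. Summed linear signals of these lists in the knockout were 1.12, 0.996, 0.763, 1.09 and 0.858 of those in the heterozygote. The natural killer and CD8 values rest on Prf1 at -0.50 and Cd8b1 at -0.26, the single members of these lists above the filter. The part of the regulatory T cells, or of any other cell type, in the difference of Psmb9 and of the chaperone genes was not tested.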

How the data were processed

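Total RNA of 1 Taf7 knockout and 1 heterozygous sample was hybridised to Affymetrix arrays. Per the labels and the design text, the authors computed log2 signals per gene with RMA in Affymetrix Expression Console version 1.1 and kept the core gene set; these log2 signals were deposited. The text speaks of an exon array, but the row identifiers are listed in the annotation of a gene-level array. No genome build is stated. Of 35556 rows, 21789 carried 1 gene symbol, 1621 several and 12146 none. Gene identifiers of 21698 matched the reference gene table of GRCm38.p6, and no symbol was updated.

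For each gene the cluster of highest mean was used, and the knockout minus heterozygote difference was computed with no further normalization. With 1 array per genotype, genes were counted at 1.2-fold and 1.5-fold with no test. All 51 members are named or counted by role, and of each other list up to 3 genes at either end and a few fixed genes. Sem1, a lid subunit outside the naming rule, was named in addition. The members, lists and folds were chosen with earlier results of these data known. Alternatives were centring, removal of a loess trend (span 0.3), quantile normalization, a filter at the 25th or the 75th percentile or none, averaging clusters, and genes with 1 cluster only. Leaving out the genes matched by name only was added after the data had been seen. The computation was run on simulated data with planted differences, which checks the arithmetic only and not the error of the real arrays. Promoter sequences are those of RefSeq for GRCm38.p6. Calculations ran in Python 3.11.15 with statsmodels 0.14.6 for loess, numpy 2.4.6 and pandas 2.3.3, and plots were drawn with matplotlib 3.10.9.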

Additional observations from a re-analysis of the deposited data

How the results depend on the processing

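No paired analysis was possible because the groups hold a single sample each, and for the same reason no replicate was omitted. A list median was taken as moved when it shifted by more than the robust spread of single genes of similar signal, divided by the square root of the number of genes. After centring, the median of the 49 proteasome genes was -0.017 and that of the 20S core -0.0084. With the loess trend removed, the medians were -0.0043 for all 49, 0.020 for the 19S base and -0.0021 for the lid. After quantile normalization they were 0.014 for all 49, 0.0025 for the core, 0.017 for the base, -0.0038 for the lid and -0.10 for the assembly chaperones, and 24 genes were lower by any amount. The number of genes at least 1.5-fold lower was 0 after centring, 0 with the trend removed and 0 after quantile normalization, against 1. Filtering at the 75th percentile left fewer genes, and the chaperone median was -0.30. The number at least 1.2-fold lower was between 4 and 7 over all settings, 7 with clusters averaged. All 430 values of single genes under alternatives shifted by less than the robust spread of genes of similar signal. This was largely fixed in advance. A change of filter, the limit to genes with 1 cluster and the omission of genes matched by name leave a gene's own value as it was. Averaging changes only genes with several clusters, and centring shifts all genes by the same small amount. Of all genes at least 1.2-fold apart, 69.0% were lower as deposited, 53.5% after centring, 63.2% with the trend removed and 57.5% after quantile normalization, and of those at 1.5-fold 87.6%, 77.6%, 82.4% and 80.1%. Over all genes, the majority at 1.2-fold turned with the filter, from 1935 lower and 870 higher to 2217 lower and 3019 higher with no filter. At 1.5-fold, higher calls numbered 91 with no filter and 71 after centring, against 47.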
